A study of Oryctolagus cuniculus with 3 samples.

Results

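The cytosolic ribosomal proteins are the protein part of the ribosomes that translate the messenger RNA of the nucleus. Their genes were found by name in the deposited gene tables: names made of RPL or RPS and a number, with an optional letter and digit, together with RPSA, RPLP0, RPLP1 and RPLP2, and without the kinases of ribosomal protein S6. The rule found 77 rows with 69 symbols among 39681 rows, and 71 of the rows held a RefSeq transcript. The other 6 were short assembled fragments beside or near a gene of the same name. Both tables came from cumulus-oocyte complexes, in which cumulus cells of the follicle enclose the egg cell, taken from rabbit ovaries. The study kept 150 female IRA rabbits, 35 days old at the start, for 4 weeks in 3 groups: CG under less than 3 ppm ammonia, LAC under 10 ppm and HAC under 30 ppm. Each group had 1 library, so no difference below has a replicate check, and the labels do not say how many animals a library pools. The gene table filed under HAC repeated that of LAC in all 39681 rows, so CG and LAC alone were compared at gene level. Which ammonia group that table came from is uncertain, and it is called the library labelled LAC.

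A ribosome is built from a small subunit, which holds the messenger RNA and reads its codons, and a large subunit, which joins the amino acids and passes the chain out through a tunnel. Each subunit is a core of ribosomal RNA covered by its proteins, most of which are present in a single copy per ribosome. The cell therefore makes them in step, and translation of their messenger RNA is controlled as a group by the mTOR pathway through a pyrimidine tract at its start. Growing oocytes store ribosomes and ribosomal protein RNA that the early embryo uses before its own transcription begins. Ribosomal protein genes have left many retrocopies, processed copies without introns, in mammalian genomes, and short reads cannot always be placed on the one or the other.

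Estimated counts summed to 78461882 in CG and 68523767 in LAC, and a count stood for about 0.5 of a read. Levels are given as CPM, counts relative to the scaled library size, and differences as LAC minus CG in log2(CPM + 1). Of the cell type markers, 14 of 14 oocyte genes found were lower in LAC by 1 or more, and their summed level was 4732 CPM in CG against 934 in LAC. None of the 7 cumulus and granulosa genes found differed by 1 or more, with sums of 13194 and 13079 CPM, while the 6 stroma genes summed to 26.3 and 80.6 CPM and the 5 macrophage genes to 5.61 and 17.5 CPM. The 5 endothelial genes summed to 48.8 and 7.82 CPM, most of it TEK, which differed by -3.19. PECAM1, VWF and CDH5 lay above 0, at 0.25, 0.30 and 0.77, and KDR at -0.10. The 5 epithelial genes summed to 82.9 and 21.8 CPM, most of it CDH1. CDH1 and EPCAM differed by -2.24 and -1.65, but KRT8 and KRT18 by 0.84 and 1.07. The lymphocyte gene MS4A1 had 14.0 and 2.83 CPM. CD3E and OVGP1 were at 0 in both libraries, and the red cell gene ALAS2 had 0.05 CPM in CG and 0 in LAC. The 3 theca genes summed to 102.5 and 100.5 CPM and the 5 smooth muscle and pericyte genes to 75.3 and 78.7 CPM. Within these sums single genes went both ways. LHCGR and CYP17A1 differed by 0.56 and 0.63, but STAR by -0.48. DES, TAGLN and ACTA2 differed by 1.33, 0.85 and 0.71, but MYH11 and RGS5 by -0.37 and -0.26. The part of these cell types in the ribosomal protein values was not tested, and in bulk RNA fewer cells of a type cannot be told apart from less RNA per cell.

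The ribosomal protein RNAs lay at nearly the same level in both libraries. A row was counted as higher or lower when it differed by 1 or more and had at least 10 counts in the higher library. Of 76 rows with enough counts, 1 was higher in LAC, RPL27, and 1 was lower, RPL23. Among the 15009 rows with a RefSeq messenger RNA, called coding rows here, 1.89% were higher and 11% were lower, and over all 29030 rows with enough counts 4.23% and 8.51%. The share of higher members, 1.32%, was near the coding background, and the share of lower members, also 1.32%, was under it. The median difference of the members was 0.08, beside -0.14 over the coding rows, and 54 members lay above 0 with 22 below, or 71.1% above, beside 38.1% of the coding rows and 50.9% of all rows.

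The members also lay closer together than coding rows with the same minimum level. Among rows with at least 10 CPM in the higher library, 63.6% of 66 members differed by less than 0.25 in either direction, beside 40.6% of 8875 coding rows. The interquartile range was 0.31 in the members and 0.67 in those coding rows. Other lists had shares as high: with no minimum level beyond the 10 counts, 66.7% of 27 translation factors, with an interquartile range of 0.29, and 64.3% of 14 surveillance and rescue genes, with 0.38, differed by less than 0.25. The position of 0 itself depended on the scaling: with factors taken from coding rows alone, the median of all rows moved from 0.01 to 0.13, and 65 members lay above 0 with 11 below. The distance from the members' median to that of the coding rows was 0.22 as reported and 0.26 with those factors.

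Together the members held 1.912% of all counts in CG (95% Wilson interval 1.908 to 1.917) and 1.973% in LAC (1.969 to 1.978). These intervals, and those of the ratios below, cover counting error at most, since the reads carry no molecular identifiers. They also take the mates of a read pair as separate reads, and so are too narrow where both mates were counted. Of the counts on coding rows the members held 2.53% in CG and 2.98% in LAC. Coding rows as a whole made up 75.4% of the CG total but 65.8% of the LAC total.

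**Figure D1:**
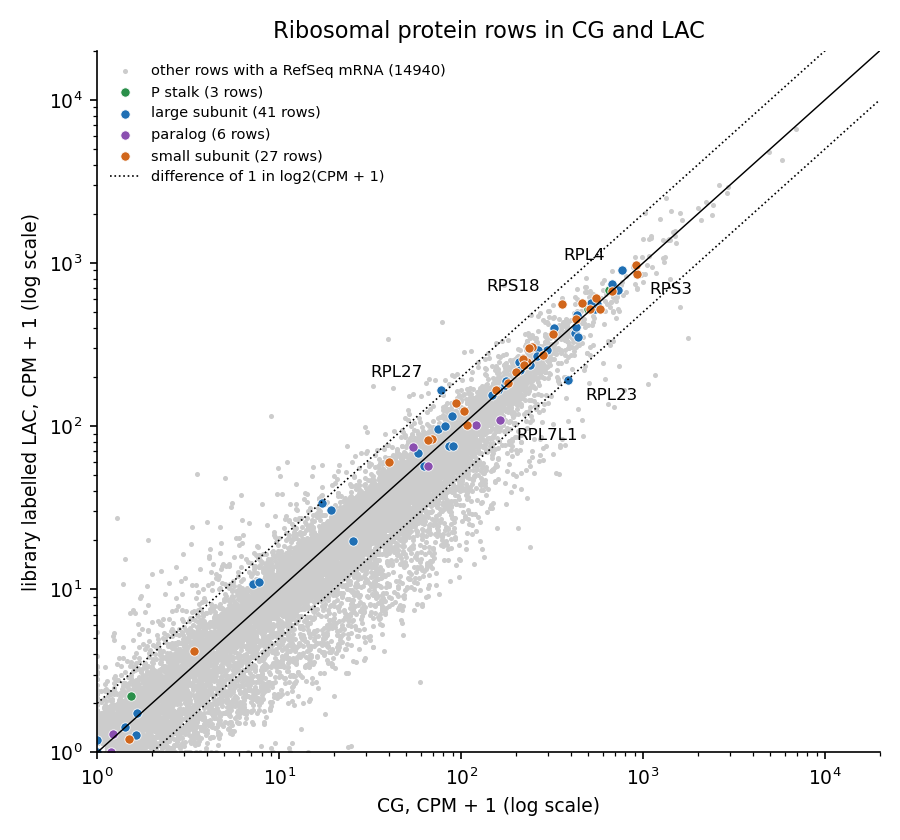
Level of each ribosomal protein row in CG (horizontal) and the library labelled LAC (vertical), as CPM + 1 on log axes, over all other coding rows in grey; 1 point is 1 row, the solid line marks equal levels and the dotted lines a difference of 1 in log2(CPM + 1). The members follow the solid line, with RPL27 above and RPL23 on the dotted lines, while much of the grey cloud lies below it.

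The large subunit was represented by 38 RefSeq rows with 36 symbols. Of the 37 with enough counts, 25 lay above 0 and 12 below, with a median of 0.08. RPL23, one of the ribosomal proteins that bind MDM2, the ubiquitin ligase of p53, had 387 CPM in CG against 191.8 in LAC. Its level in LAC was 0.496 of that in CG (95% exact binomial interval 0.481 to 0.510), a difference of -1.01. The row lies at 40300583 to 40304360 on the minus strand of sequence NC_013687.1 in build OryCun2.0. RPL27 lies on the plus strand of the same sequence, at 43677046 to 43680662. It had 76.96 CPM in CG against 166.5 in LAC, 2.16-fold higher (2.07 to 2.26), a difference of 1.10. Both genes were the extremes of the whole set, in opposite directions. RPL23 fell short of the rule with factors from coding rows, at -0.83, and with a pseudocount of 5, at -0.99, and RPL27 did so in the deposited FPKM, at 0.97. Summed with the other rows of its orthology family, RPL27 turned to -0.17.

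RPL5 and RPL11, which enter the large subunit with the 5S ribosomal RNA and also bind MDM2, stayed near 0. RPL5 had 261.1 and 266.9 CPM in CG and LAC, and RPL11 had 294.5 and 290.7 CPM. The most counted rows of the subunit, on a scale not corrected for length, were RPL4, RPL26 and RPL10. RPL4, whose long loop lines the exit tunnel, had 762.4 CPM in CG against 899.3 in LAC, a difference of 0.24. RPL26, at the mouth of that tunnel, had 731.9 and 678.8 CPM, a difference of -0.11. RPL10, one of the last proteins to join the subunit, had 675.0 and 747.6 CPM, a difference of 0.15. The abundant rows thus lay on both sides of 0, none by more than 0.24.

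Below RPL23, the next lowest core rows were those of RPL22, RPL29 and RPL39. RPL22 had 24.4 CPM in CG against 18.8 in LAC, a difference of -0.36. RPL29 had 437.0 and 353.3 CPM, a difference of -0.31. RPL39, a small protein of the tunnel exit, had 89.5 and 74.96 CPM, a difference of -0.25. At the other end RPL21 had 18.2 CPM in CG against 29.7 in LAC, 1.63-fold (1.48 to 1.80). Nearly all counts of that row lay on assembled transcripts that the study classed as long non-coding. The ratio therefore describes those transcripts more than the RefSeq messenger RNA. RPL23A, at 6.16 and 9.79 CPM, and RPL32, at 6.74 and 10.1 CPM, also differed by over 0.5. These 3 high rows had few counts, and most counts of their orthology families lay on rows with other names.

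Few counts fell on some rows. RPL38, a large subunit protein studied for its part in translating Hox messenger RNA, had 52 counts in CG and 50 in LAC on its named row. The second row of RPL18 had 0 and 13 counts, and the second row of RPL39 had 0 in both libraries and is the 1 member without enough counts. Of the fragments, that beside RPL27A was the most counted, with 16.1 CPM in CG against 32.6 in LAC, a difference of 0.97. The RPL27A gene row just before it on the plus strand, at 265.1 and 291.0 CPM, differed by 0.13. The fragment starts past the end of the annotated gene row and was not summed with it. Leaving all 6 fragments out kept the counts at 1 higher and 1 lower and the median at 0.08.

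**Figure D2:**
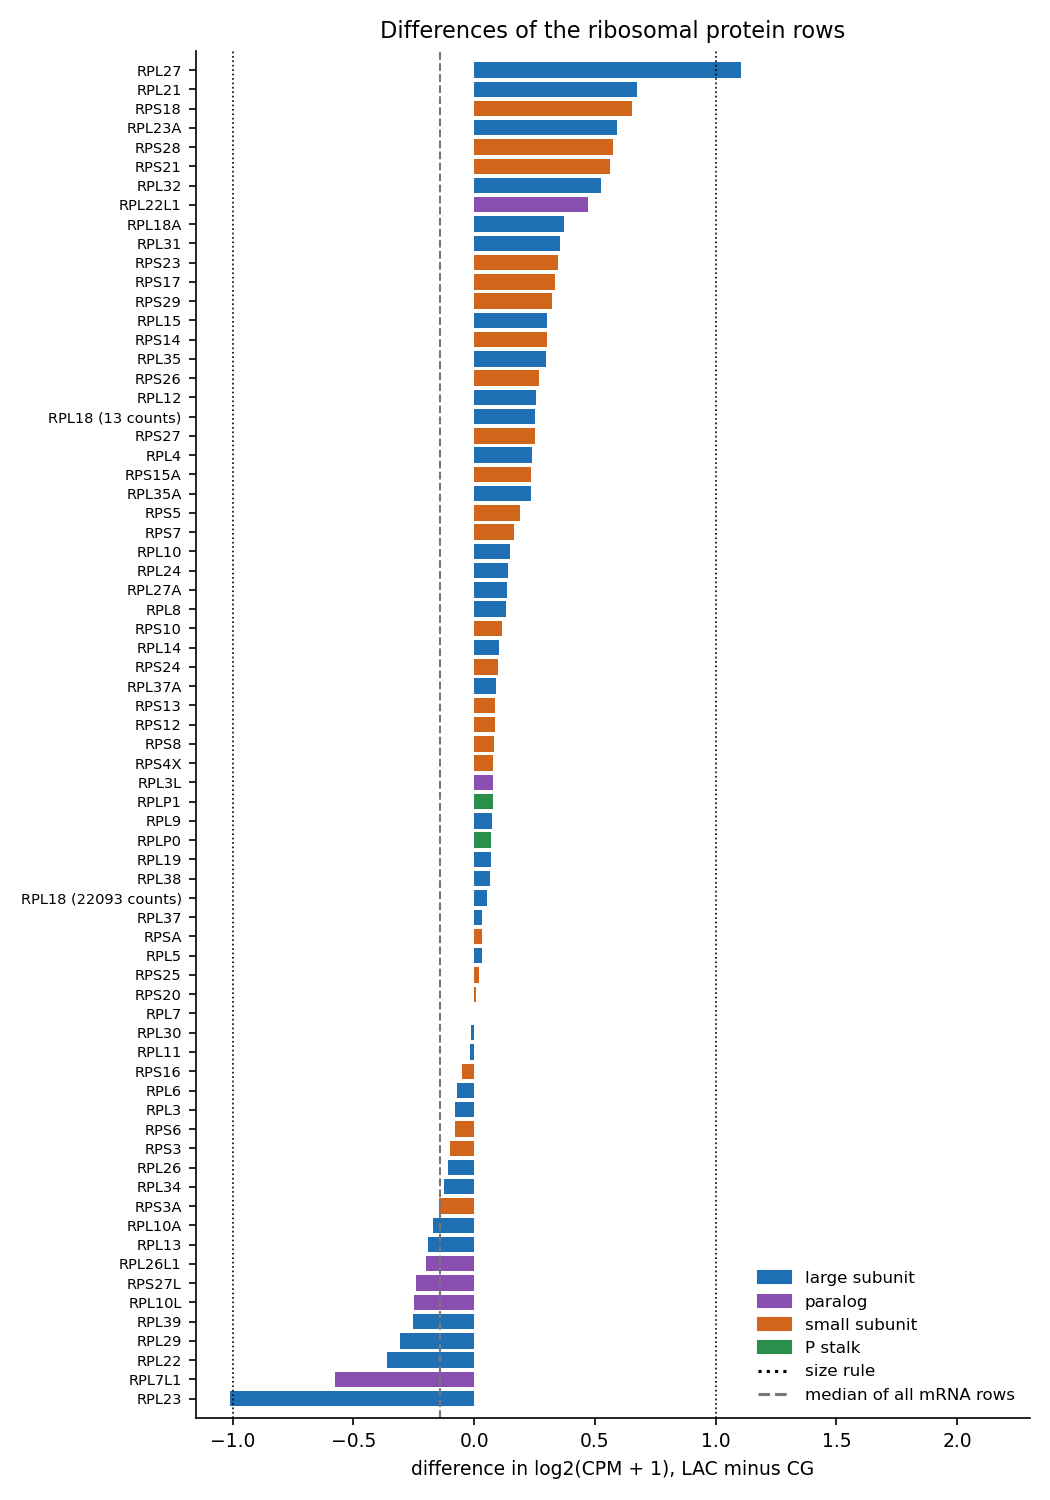
Difference in log2(CPM + 1), LAC minus CG, of each of the 70 ribosomal protein rows with a RefSeq transcript and enough counts, ranked; the colour gives the subunit, dotted lines the size rule of 1 and the dashed line the median of all coding rows, -0.14. Most bars are shorter than 0.25, and RPL27 and RPL23 alone reach a dotted line.

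The small subunit had 25 rows, all with enough counts, of which 21 lay above 0, 4 below and 0 passed the size rule. Their median was 0.11. RPS3, which lies where the messenger RNA enters, had 922.7 CPM in CG against 860.8 in LAC, a difference of -0.10. RPS4X, the copy of RPS4 carried by the X chromosome, had 914.8 and 966.2 CPM, and RPS20 had 672.6 and 676.8 CPM. RPS6, the protein that the S6 kinases phosphorylate downstream of mTOR, had 106.9 and 101.0 CPM, a ratio of 0.945 (0.904 to 0.989). Of these 4 rows RPS3 differed most.

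The largest differences of the small subunit were those of RPS18, RPS28 and RPS21, all higher in LAC. RPS18, in the head of the subunit, had 356.0 CPM in CG against 560.8 in LAC, 1.58-fold (1.54 to 1.61). The row shares 193 bases with VPS52 on the opposite strand, which had 65.3 and 57.2 CPM. RPS28 had 39.2 and 59.0 CPM, 1.504-fold (1.41 to 1.61), and RPS21 had 93.2 and 137.9 CPM, 1.48-fold (1.42 to 1.55). Counting members that differed by 0.5 or more, 9 were higher and 2 lower, where 7.81% and 25.4% of coding rows, and 18.7% and 19.4% of all rows, were. The fragments with the lowest levels of this subunit were those of RPS16, with 39 and 14 counts, and RPS26, with 192 and 215 counts.

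The P stalk, made of RPLP0 and dimers of RPLP1 and RPLP2, reaches out of the large subunit and binds the elongation factors. RPLP0 had 652.8 CPM in CG against 685.6 in LAC, a difference of 0.07. RPLP1 had 497.3 and 524.5 CPM, a difference of 0.08. A fragment beside RPLP1 had 43 and 83 counts. No row was named RPLP2. Both stalk genes thus lay close to the members' median.

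Paralogs, second genes for a ribosomal protein that some tissues use, had a median of -0.22 over 6 rows, with 2 above 0 and 4 below, and none passed the size rule. RPL22L1, which can stand in for RPL22, had 53.2 CPM in CG against 74.0 in LAC. With RPL22 at 24.4 and 18.8 CPM, the log2 ratio of RPL22L1 over RPL22 was 1.09 in CG and 1.92 in LAC, a change of 0.83. With the pseudocount of 1 this was the largest change among the 6 pairs of paralog and partner. Further rows of the family that RPL22 and RPL22L1 share had 49.2 and 54.3 CPM, more in sum than the named RPL22 row, and they are not part of this ratio. The named RPL22 row spans 485 bases, near the 443 of LOC100338464 and the 515 of LOC100356896 in that family, while RPL22L1 spans 3418. Whether the named RPL22 row is the gene with introns or a processed copy was not tested. RPS27L, a p53 target, had 119.7 and 101.3 CPM, and its partner RPS27 had 103.2 and 123.1 CPM. The log2 ratio of that pair was 0.21 in CG and -0.28 in LAC. RPL7L1, which takes part in making the large subunit, had 162.7 and 108.8 CPM, a ratio of 0.669 (0.642 to 0.696), while RPL7 had 555.8 and 556.3 CPM. RPL26L1 had 64.4 and 56.0 CPM and followed RPL26, with a change of -0.09 in the log2 ratio. The remaining pairs rested on few counts: RPL10L, a retrogene known from the testis, had 15 counts in CG and 0 in LAC, with a ratio of up to 0.683 by its interval. RPL3L, the form of striated muscle, had 18 and 20 counts, beside 426.5 and 403.5 CPM for RPL3.

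Many counts of these gene families lay on rows that do not carry the gene's name, and which gene their reads came from was not tested. The deposited annotation gives rows a KEGG orthology number, and 62 families with a named member held 802 further rows, 793 of them with LOC names. Of these rows 85 spanned more than 10 kb, and some are rows of other genes. The further rows held 0.699% of all counts in CG and 0.765% in LAC. Among the 424 that passed the minimum, 3.07% were higher in LAC and 4.95% lower, both under the 4.23% and 8.51% of all rows, with a median of 0.15. The named row held over 90% of the family's counts in 23 families in CG and under 50% in 10. RPL23A held 0.543%, RPL32 1.44%, RPL21 5.46%, RPS6 22.2%, RPS26 22.5%, RPSA 31.8% and RPL9 33.3% of their families in CG. The values of these rows describe less than 50% of the reads placed in the family. For RPL23A the family includes LOC103349315, a row of 165378 bases. Without rows longer than 10 kb that family had 309.1 CPM in CG, beside 6.16 on the named row.

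Summed over the 62 families with a named member, none passed the size rule in either direction. The median over the 62 families was 0.09, with 42 above 0 and 20 below, and 46 differed by less than 0.25, beside 41 by the named rows. The named row and the summed further rows lay on opposite sides of 0 in 25 families. RPL27 was the widest case: its further rows had 267.9 CPM in CG against 140.5 in LAC, against 76.96 and 166.5 CPM on the named row. The family as a whole had 344.8 and 307.0 CPM, a difference of -0.17, opposite in sign to the named row's 1.10. The named share of the family was 22.3% in CG and 54.2% in LAC. Nearly all other reads lay on LOC100347177, with 156.9 and 80.7 CPM, and LOC100356974, with 99.5 and 50.2 CPM.

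RPL23 kept its difference in the sum. Its further rows had 10.3 CPM in CG against 14.3 in LAC, and the family had 397.3 and 206.1 CPM, a difference of -0.94 that falls short of 1. RPL29 had 49.7 and 139.6 CPM on further rows, led by LOC100349704 with 7.12 and 46.7 CPM, and its family differed by 0.02. For RPL34 the further rows had 23.5 CPM in CG against 69.6 in LAC, most of them on a row named BSP1 with 16.1 and 56.8 CPM. The family of RPL34 differed by 0.56 and its named row, at 61.4 and 56.3 CPM, by -0.12. RPS18 remained high in the sum, with 626.2 and 853.1 CPM, a difference of 0.45.

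Further rows were lower in LAC in other families. RPS7 had 547.1 and 613.1 CPM on its named row and 102.8 and 29.2 CPM on further rows, among them LOC100356472 with 52.0 and 5.26 CPM. RPS13 had 199.95 and 212.5 CPM on its named row and 30.5 and 9.03 CPM on further rows, nearly all on C4H12orf75, a row of 53682 bases. Without rows longer than 10 kb the RPS13 family differed by 0.09. RPL4 had 128.0 and 73.4 CPM on further rows. The family sums of RPS7, RPS13 and RPL4 differed by -0.02, -0.06 and 0.13. LOC103349315, with 808.7 and 1289 CPM, is a row of 165378 bases that held most counts of the RPL23A family. Without rows longer than 10 kb that family differed by 0.02 in place of 0.51. LOC108178019, of the RPL21 family, had 2.51 CPM in CG against 49.8 in LAC.

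**Figure D3:**
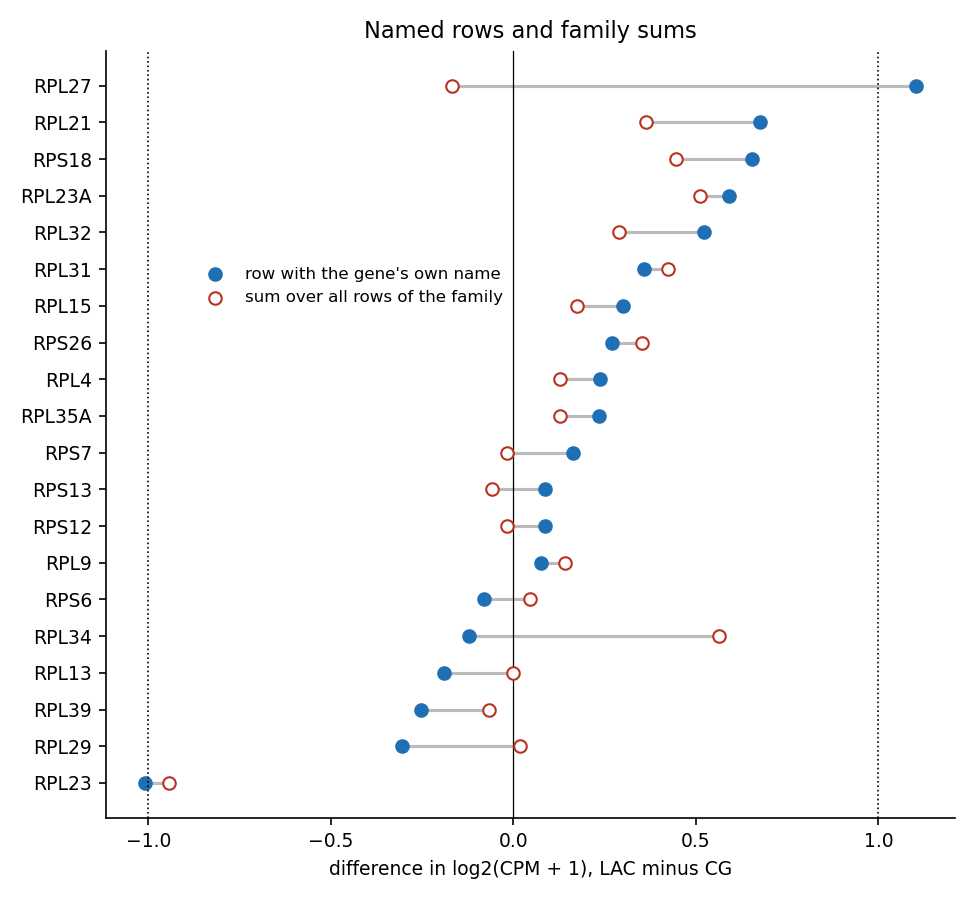
Difference in log2(CPM + 1), LAC minus CG, of the row with the gene's own name (filled) and of the sum over all rows with the same KEGG orthology number (open), for the 20 families where both differ most. The points of RPL27 lie on opposite sides of 0, at 1.10 and -0.17, while those of RPL23 lie together at -1.01 and -0.94.

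**Figure D4:**
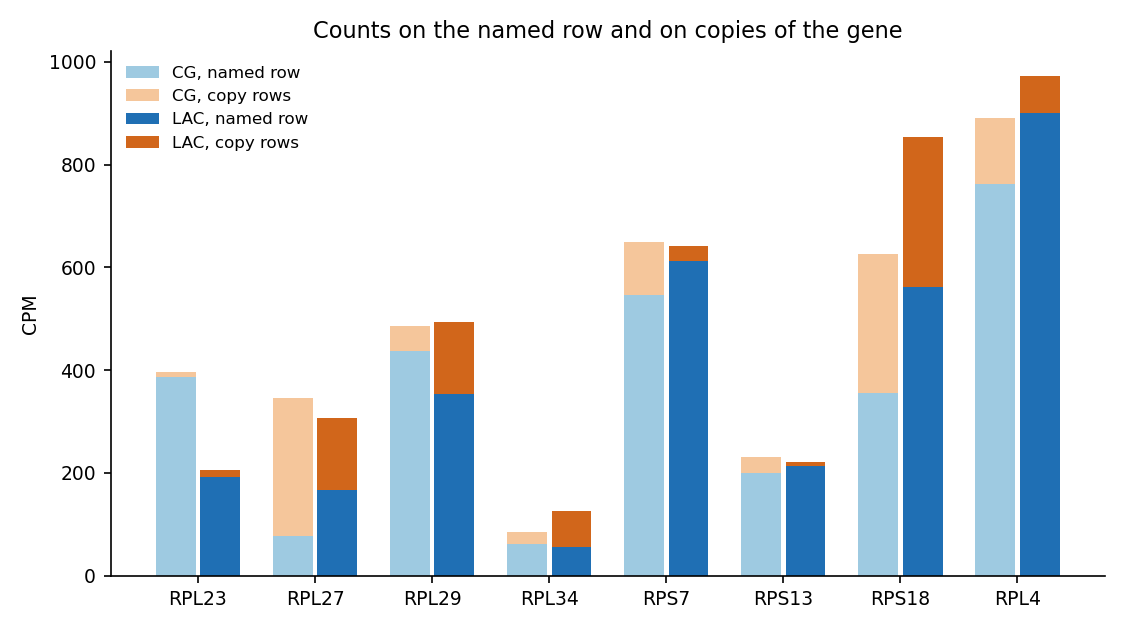
CPM on the named row (blue) and, stacked on it, on the further rows of the family (orange) for 8 families, with CG in light and LAC in dark colours. The stacks of RPL27 have like heights with exchanged parts, and those of RPL23 consist almost wholly of the named row.

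Some ribosomal proteins have no row of their own name in these tables. The gene numbers of LOC names, searched in a RefSeq gene table made for mOryCun1.1, gave RPL7A, RPL17, RPS27A and RPL36A. LOC100354898, which is RPL7A, had 38.5 CPM in CG against 338.8 in LAC, 8.80-fold higher (8.34 to 9.29), a difference of 3.10. The row lies at 293318 to 310917 on the minus strand of NW_003159366.1 and spans 17600 bases, with 1 assembled and 1 RefSeq transcript. The 21 rows of its orthology family, that row included, summed to 64.9 CPM in CG against 371.0 in LAC, a difference of 2.50. Most of the sum in each library is that 1 row, so the sum is no separate check of it. RPL17 lies in a row merged with C9H18orf32, which had 644.7 CPM in CG against 329.7 in LAC, 1.96-fold lower (1.91 to 2.00). The 32 rows of the L17 family, that row included, had 838.9 and 712.9 CPM, a difference of -0.23. RPS27A, made as a fusion with ubiquitin, had 437.4 and 499.4 CPM, and RPL36A had 44.6 and 38.7 CPM. Of the 15 orthology families of ribosomal proteins that hold no member's row, L38 among them since the row named RPL38 carries no orthology number, 14 differed by less than 0.5 and L7a alone by 1 or more. In 2 of the 14, P2 and S9, both libraries lay under 1 CPM.

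The study also deposited a table of 15335 transcripts classed as long non-coding, with FPKM values, which count fragments per transcript length and sequencing depth, for all 3 libraries. It held 7 transcripts at 4 ribosomal protein loci, and these are the values of the set that reach HAC. For the assembled transcript MSTRG.14761.1, at RPL34, CG had 38.4 FPKM, LAC 3.04 and HAC 1.38. It shares the locus with the coding transcript and made up 77.5% of the locus counts in CG and 7.01% in LAC. The counts of the locus outside it, not scaled to library size, were 1093 in CG and 3557 in LAC. The whole row of RPL34, with 4862 and 3825 counts, differed less than either part. Its difference of -0.12 thus joins a part lower in LAC and a part higher in LAC, and the counts outside the transcript were not held to the size rule. The row also lies wholly within LOC108178095, on the same strand, with 0.90 and 1.13 CPM.

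The RPS28 locus appears in that table as 2 RefSeq transcripts with non-coding accessions, which held all of its counts. Summed, CG had 95.3 FPKM, LAC 135.9 and HAC 136.2, so LAC and HAC both lay above CG. XR_001792355.1, the rarer one, had 4.06, 20.99 and 12.8 FPKM. At RPL22L1 the assembled transcript MSTRG.13658.1 had 18.6, 20.8 and 12.9 FPKM, and it held 24.4% of the locus counts in CG and 20.4% in LAC. The counts outside it were 3182 in CG and 4001 in LAC. RPL21 had 3 assembled transcripts with sums of 6.52, 8.71 and 6.08 FPKM, one of which, MSTRG.21664.3, was at 1.10 in CG and listed at 0 in the others. MSTRG.21664.1 held 39.7% of the locus counts in CG and 55.5% in LAC, and MSTRG.21664.2 held 51.9% and 44.4%. With the 8.27% of MSTRG.21664.3 in CG, nearly no counts remained for the RefSeq transcripts of RPL21 in either library.

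Among the 7 transcripts, LAC against CG gave 1 higher and 2 lower by 1 or more in log2(FPKM + 1), beside 13.6% and 12.4% of 10259 transcripts that reached 1 FPKM or more in either library. HAC against CG gave 1 higher and 2 lower, beside 10.1% and 7.06% of 9414. HAC against LAC, where MSTRG.21664.3 was at 0 in both and so not counted, gave 0 in either direction, beside 16.8% and 12.6% of 10661. These comparisons share libraries with each other. FAU, which encodes ribosomal protein S30 fused to a ubiquitin-like protein and falls outside the name rule, had 1 such transcript, with which CG had 2.00 FPKM, LAC 0 and HAC 67.4.

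**Figure D5:**
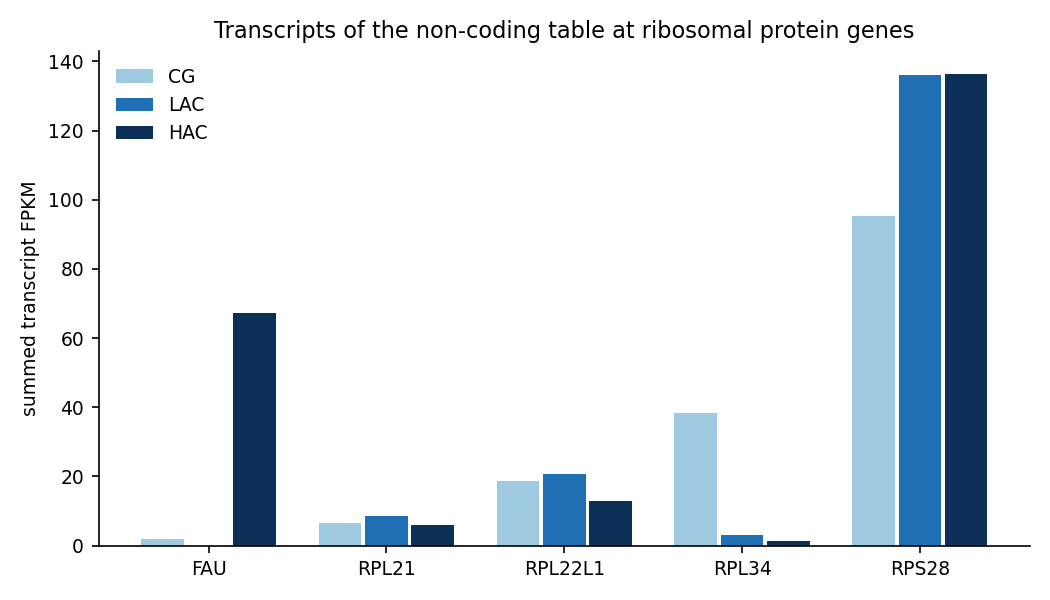
Summed FPKM of the transcripts in the deposited non-coding table at FAU and 4 ribosomal protein loci, 1 bar per library (CG, LAC, HAC) without replicates. RPL34 is highest in CG at 38.4, with 3.04 and 1.38 in the others, FAU is highest in HAC at 67.4, and RPS28 is lower in CG than in both others.

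Genes that build ribosomes differed from the ribosomal proteins in their position. Of 30 ribosome biogenesis factors found of 32 listed, 0 were higher, 1 was lower and 26 lay below 0, with a median of -0.32. Coding rows as a whole also lay mostly below 0, with a median of -0.14, or -0.18 at 10 CPM or more. Of the biogenesis factors 13.3% lay above 0, beside 38.1% of coding rows and 34.6% of those with at least 10 CPM. LTV1, which helps mature the small subunit, had 64.6 CPM in CG against 22.1 in LAC. NPM1 and NCL, abundant proteins of the nucleolus, had 308.9 and 236.1 CPM, and 183.5 and 147.9 CPM. Mitochondrial ribosomal proteins, made by other genes for the ribosomes inside mitochondria, had 2 higher and 4 lower of 68 with a median of -0.28. MRPL17 had 29.4 and 91.3 CPM and MRPL33 8.50 and 27.3 CPM. MRPS22 had 186.6 and 38.3 CPM, MRPL39 80.3 and 37.0 CPM, MRPS10 33.1 and 14.2 CPM, and MRPS21 7.59 and 3.24 CPM. MRPL37, with 99.4 and 74.2 CPM, was the second most counted after MRPS22. Of these mitochondrial genes, taken as the most counted row per name, 29.4% lay above 0, beside 38.1% of coding rows and 71.1% of the cytosolic members. With every row counted, as for the members, 33.8% of 74 mitochondrial rows lay above 0, with 3 higher and 5 lower.

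Translation factors had 0 higher and 1 lower of 27, with a median of -0.12. EEF1A1, which brings aminoacyl-tRNA to the ribosome, had 6908 and 6642 CPM, and EIF4G2 had 1498 and 1473 CPM. EIF5B, which joins the subunits, had 128.9 and 54.4 CPM. Of 9 other ribosome-linked genes the lower one was FAU, with 61.4 and 24.5 CPM, but its orthology family of 3 rows had 69.3 and 58.8 CPM, a difference of -0.23, while RACK1, a scaffold on the small subunit, had 659.3 and 711.9 CPM. Of 18 genes of mTOR and S6 kinase control the lower one was TSC1, an inhibitor of mTOR, with 98.0 and 41.1 CPM, and the median was 0.07. LARP4, which binds the poly(A) tail, had 362.9 and 592.2 CPM, and EIF4EBP2, a repressor of cap-dependent initiation, had 213.0 and 231.7 CPM. In the list of surveillance and rescue genes 1 of 14 was lower, ZNF622, a factor of large subunit maturation, with 35.9 and 11.4 CPM. HUWE1, a ubiquitin ligase, had 419.1 and 459.1 CPM and GCN1, which senses collided ribosomes, 183.6 and 196.4 CPM, and the list's median was 0.04. The proteasome, another large complex of fixed make-up, had 0 higher and 2 lower of 37, PSMA8 and PSMC2, with a median of -0.19. PSMC2 had 268.7 and 121.7 CPM, PSMA8, the subunit of germ cells, 12.4 and 3.03 CPM, and PSMD2 321.6 and 312.2 CPM. Each list's shares stand beside the coding background of 1.89% higher and 11% lower, and the summed oocyte markers were 4732 and 934 CPM in these libraries.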

How the data were processed

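Per the submitters' processing notes, reads were handled with fastp and HISAT2 on build OryCun2.0; versions, settings and the abundance estimator are not given in the sources used here. The authors deposited an estimated count and an FPKM value per gene row, and, per non-coding transcript, FPKM with a signal of read coverage, per the file headers. At 8651 loci in CG and 8638 in LAC with 1 such transcript, 100% of counts equalled coverage times length over 75 within 1% plus 1 count. The gene table filed under both LAC and HAC thus follows the coverage column labelled LAC. Which ammonia group stands behind that label remains uncertain. Reads have 150 bases, so intervals were computed on halved counts. That unit is the single read, although the mapping block of CG gives 79.03% of reads as mapped in pairs. Ribosomal RNA was depleted and the second strand marked with dUTP, per the labels' protocols; whether counts use strand is not given. The mapping blocks give 25.41% of reads as multi-mapped for CG, 26.99% for LAC and 26.07% for HAC, but the valid reads of the LAC and HAC mapping blocks are exchanged, so which of these belongs to which library is uncertain. How such reads were assigned is not given.

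Counts were scaled to CPM with trimmed mean of M values factors (30% of ratios and 5% of levels trimmed), computed from their formula in Python 3.11.15 with pandas 2.3.3, numpy 2.4.6 and SciPy 1.17.1, and checked on simulated data. The pseudocount was 1, which understates changes of low rows. With 1 library per group, no test or p-value was computed. The 2 repeated columns, of 12 with sample values, were not used, and 5725 rows without a name stayed in the library totals. Gene FPKM was tried in place of CPM: among 65 members with at least 1000 counts in CG, counts per FPKM ran from 6.24 to 3083, so levels between genes could not be compared per length. Members and lists were chosen with earlier results of these data known. Named genes are every member past the size rule, the 5 largest and 5 smallest differences among members of at least 10 CPM, the 3 most and 2 least counted rows per subunit, the P stalk, paralogs with partners, RPS6, and per list the genes past the rule and the 2 most counted. RPL5, RPL11, RPL38, RPS21, RPL23A, RPL32, LARP4 and the copy rows were chosen after their values were seen. Orthology sums were added after seeing the data. No sequences of these genes were used here.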

Additional observations from a re-analysis of the deposited data

How the results depend on the processing

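No paired analysis was possible because each group had 1 library, and for the same reason none could be left out. Of 197 recomputed summary values, 153 stayed within their margin, and the cause of the other shifts was not tested. The margin was the counting interval for shares and 1.5 times the reported count for counts. For the members' median and the paralog changes it was drawn from the log2 intervals of single members. With factors from coding rows the members' median was 0.26, with 2 members higher (RPL27 and the RPL27A fragment) and 0 lower, their scaled share 1.78% in CG and 2.12% in LAC, and there were 2 lower mitochondrial ribosomal proteins and 1 higher and 1 lower proteasome subunit. Median-of-ratios factors gave shares of 1.917% and 1.968%, and coding counts as the denominator 2.53% and 2.98%. In the deposited FPKM the median was 0.026, 0 members were higher, 68 members kept the sign of their difference, RPL10L over RPL10 changed by -0.20, 2 mitochondrial genes were lower, 1 proteasome subunit was higher and 2 biogenesis factors were lower. Adding 0.1 in place of 1 before the logarithm gave 4 higher and 2 lower members, among them the second row of RPL18, the RPLP1 fragment and RPL10L, a change of -1.68 in RPL10L over RPL10, 1 higher gene of mTOR control, 1 higher and 4 lower proteasome subunits, 2 higher non-coding transcripts in LAC against CG and 1 lower in HAC against LAC. Adding 5, 0 members were lower, RPL10L over RPL10 changed by -0.20, 2 mitochondrial genes were lower, and the transcripts had 1 lower in LAC, and 0 higher and 1 lower in HAC, against CG. A size rule of 0.5 gave 9 higher and 2 lower members, and 19 lower mitochondrial genes, 1 higher and 12 lower proteasome subunits, 1 higher and 9 lower biogenesis factors, 4 lower translation factors, and 1 higher and 4 lower genes of mTOR control. Orthology family sums, added after seeing the data, gave 0 higher and 0 lower, and RPL27 reversed to -0.17, also without rows over 10 kb. Depth limits the rows with few counts, such as RPL10L and RPL3L.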
